A study of Ovis aries with 40 samples.

Results

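CYP1A1, ALDH1A1, AOX1, PON1 and TXNRD1 encode enzymes that oxidize, hydrolyse or reduce foreign and reactive compounds. Their mRNA was followed in longissimus dorsi, the long muscle of the back, of sheep before and after birth. The 5 genes were chosen by name from the 15008 probes of an Agilent sheep array, 1 probe each, because earlier results of these data showed a change around birth or a breed difference at 1 fetal stage for them. Every probe with one of these symbols in the files was looked for, and no further probe carried one. CYP1A1 and ALDH1A1 are named in the files. The probes for AOX1, PON1 and TXNRD1 were designed on expressed sequence tags, and their names rest on the BLASTN match to human sequences made by the authors.

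The 40 arrays came from 16 Texel and 24 Ujumqin animals, with the RNA of 1 animal on each array. Texel sheep, a breed with much muscle and little fat, carry a natural myostatin mutation and serve as a myostatin model, whereas Ujumqin sheep have less muscle and more fat. Fetuses of both breeds were taken by caesarean section on gestation days 70, 85, 100, 120 and, last, 135, and Ujumqin lambs were also sampled at birth, 1 month and 2 months. Each of the 13 groups held 3 animals, except the Texel group at 100 d with 4. No Texel lamb was analysed here, so every value after birth is from Ujumqin. The ewes were purebred and were inseminated with semen of their own breed after estrus synchronization. The study's methods give 3 ewes for each breed and fetal stage, and littermates are not marked. The 4 Texel fetuses of 100 d may therefore include littermates. Sex was mixed in most groups, but the Texel group at 120 d held 3 males, and the Ujumqin groups at 120 d, 135 d and 2 months each held 3 females. On each array 79.3 to 90.9% of the spots were well above background, the median processed signal was between 218 and 708, and no spot was saturated. The arrays lay on 5 slides. The lambs at birth and at 1 month were on other slides than the Ujumqin fetuses of 135 d, and those at 2 months shared a slide with them. Myoglobin, an oxygen store of muscle fibres and the only measured gene of the myofibre marker list, was well above background on every array, as were MYOD1, MYF5 and MYOG of the myoblasts. The levels come from whole muscle, so that fewer cells of a type and less RNA per cell cannot be told apart.

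Detoxification runs in phases. Cytochrome P450 enzymes such as CYP1A1 add oxygen to planar aromatic compounds, and CYP1A1 is the classic target of the aryl hydrocarbon receptor AHR with its partner ARNT. Aldehyde dehydrogenase ALDH1A1 oxidizes retinal to retinoic acid and also clears aldehydes from lipid peroxidation, and the molybdenum enzyme AOX1 oxidizes aldehydes and nitrogen heterocycles. PON1 is a lactonase and esterase, made mostly in liver and carried on high-density lipoprotein in blood. TXNRD1 is the cytosolic selenoenzyme that uses NADPH to keep thioredoxin reduced.

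The 60-base probes are shown to make clear what each signal reports. Of each probe 30 bases are given, the first 30 except for CYP1A1, where the last 30 hold the motif. Capitals mark AATAAA, the usual polyadenylation signal, found in the CYP1A1 probe and in 5.63% of all 15008 probe sequences on the strand given. All are written from 5′ to 3′ as in the files, which give no genome position for them.
CYP1A1 probe, last 30 bases: atatctatctacctgagctaAATAAAgata
ALDH1A1 probe, first 30 bases: gtctgcttgtcaaatgaagtaatgcctgaa
AOX1 probe, first 30 bases: ttgtatgtgattcaaagttgtcttgcacca
PON1 probe, first 30 bases: caagtatgtctatatagctgaatcgctggc
TXNRD1 probe, first 30 bases: aagctgaatcacaagatccaagcttatttt

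The probes are A_70_P041841 for CYP1A1, A_70_P030026 for ALDH1A1, A_70_P000226 for AOX1, A_70_P045271 for PON1 and A_70_P070736 for TXNRD1. Values below are log2 of the quantile-normalized signal, in which 1 unit is a 2-fold change, with the SD over animals. They compare groups for 1 probe and never 1 probe with another. CYP1A1 was well above background on 36 of the 40 arrays, ALDH1A1 and AOX1 on all 40, TXNRD1 on 21 and PON1 on 16. All 5 passed the filter for testing, which asked for 1 such array, and PON1 passed through its early fetal arrays alone. None of the 200 member spots was marked as an outlier.

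**Figure D1:**
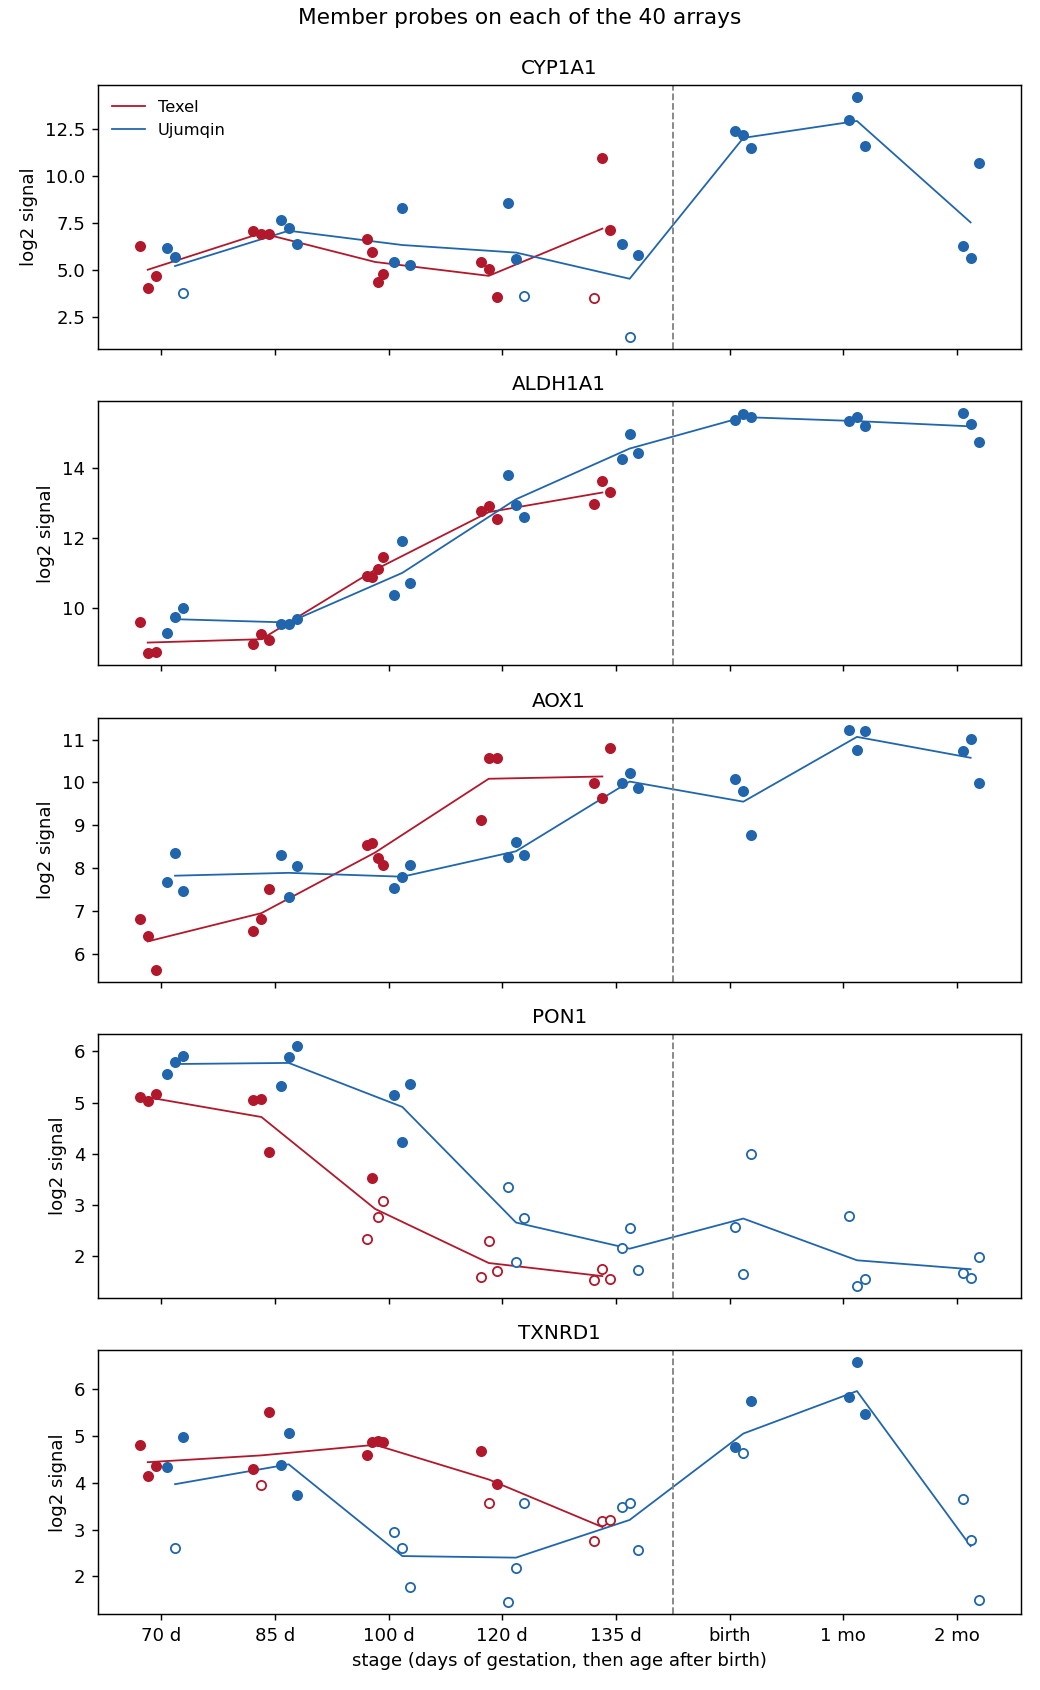
Log2 normalized signal of the 5 probes (y axis) at each stage (x axis, days of gestation and then age after birth) for Texel (red) and Ujumqin (blue). Each point is 1 animal, open points are not well above background, lines join group means and the dashed line marks birth. The CYP1A1 points at birth and 1 month lie between 11.49 and 14.19, above every fetal point.

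CYP1A1 was low and uneven in fetal muscle and high in newborn and 1-month lambs. Ujumqin fetuses at 135 d measured 6.35, 1.44 and 5.8, and the probe was not well above background in the animal at 1.44. Lambs measured 12.38, 12.16 and 11.49 at birth and 12.97, 14.19 and 11.58 at 1 month. All 6 young lambs were thus above all fetuses, and the groups at birth and 1 month overlapped each other. By 2 months, 2 lambs were back at 6.28 and 5.61 while the third measured 10.69. The mean moved from 4.53 ± 2.69 (SD, n = 3) at 135 d to 12.01 ± 0.46 (SD, n = 3) at birth, 12.91 ± 1.30 (SD, n = 3) at 1 month and 7.53 ± 2.76 (SD, n = 3) at 2 months. These differences are 7.48 ± 1.42 (SE) from 135 d to birth, a 179-fold rise in mean, 0.90 ± 1.42 (SE) from birth to 1 month and -5.39 ± 1.42 (SE) from 1 to 2 months. They are given without a test because CYP1A1 was picked for them. With 1 animal left out in turn, the difference at birth ranged from 5.94, without the fetus at 1.44, to 8.39. With normexp background correction, which adds an offset, it was 4.47.

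Because birth and 135 d lay on different slides, the lambs were also set beside the fetuses of their own slide. On slide 1 the CYP1A1 values were 11.49 to 12.38 in newborn lambs and 4.04 to 7.05 in 5 Texel fetuses of 70 and 85 d. On slide 3 they were 11.58 to 14.19 at 1 month and 4.37 to 5.93 in 5 fetuses of 100 and 120 d, most of them Texel. On slide 5 the lambs of 2 months, 5.61 to 10.69, overlapped the 5 fetuses of 135 d, 1.44 to 10.96. On slides 1 and 3 the Ujumqin lambs thus did not overlap the fetuses of their own slide. Those fetuses were younger than 135 d and all or mostly Texel, so breed differed along with age there.

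**Figure D2:**
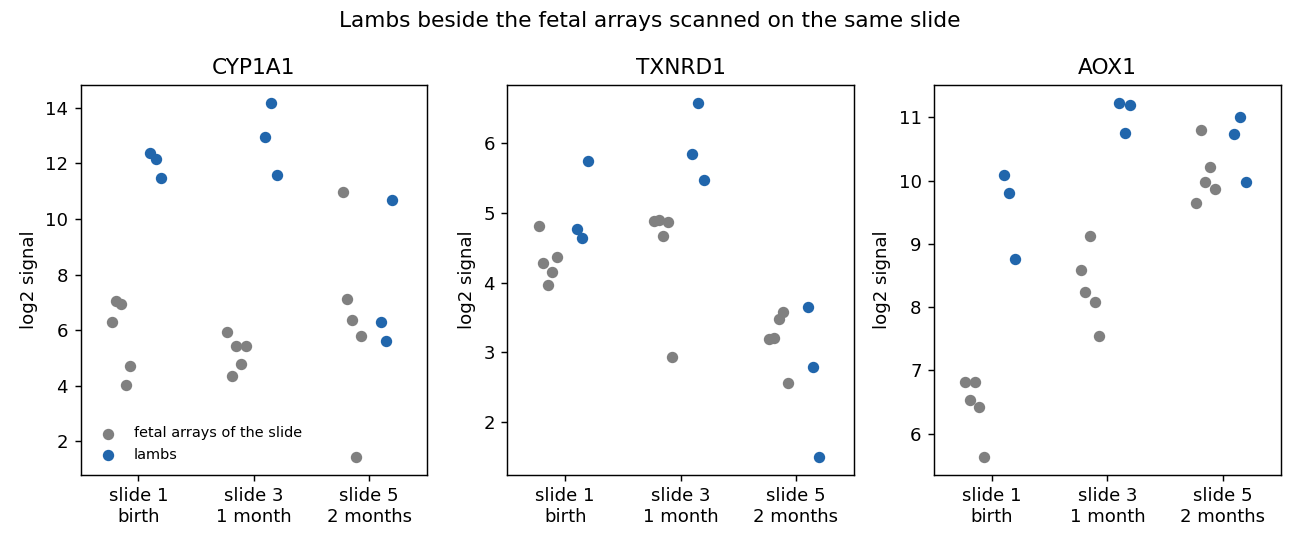
Log2 normalized signal (y axis) of CYP1A1, TXNRD1 and AOX1 on the slides that held lambs (x axis). Grey points are the 5 fetal arrays of the slide and blue points the 3 lambs. On slides 1 and 3 no CYP1A1 point of a lamb falls among the fetal points, and on slide 5 they overlap.

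Before birth CYP1A1 showed no called change with stage. The Texel mean was 5.01 ± 1.16 (SD, n = 3) at 70 d and 6.96 ± 0.08 (SD, n = 3) by day 85. It was 5.42 ± 1.04 (SD, n = 4) and 4.69 ± 0.97 (SD, n = 3) on days 100 and 120 and then 7.19 ± 3.73 (SD, n = 3) at the last fetal stage. At 85 d both breeds were tightly grouped, at 6.89 to 7.05 in Texel and 6.37 to 7.68 in Ujumqin. The wide spread at 135 d came from a Texel fetus at 10.96 beside others at 7.11 and 3.51. Single Ujumqin fetuses also stood above their group, with 8.29 at 100 d and 8.58 at 120 d. The change from 70 to 135 d in Texel was 2.18 ± 1.32 (SE), with an adjusted p of 0.216 in limma. It depended on single animals in both directions. Without the Texel fetus at 3.51 it was 4.03, with an adjusted p of 0.00844, and without the one at 10.96 it was 0.30 and did not pass. From 70 to 120 d in Ujumqin the change was 0.72 ± 1.19 (SE), with an adjusted p of 0.691. In the order of the 13 group means, which ran from Ujumqin at 135 d to Ujumqin at 1 month, only the step from 2 months up to birth separated neighbouring groups without overlap.

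For the receptor side of the pathway no change at birth passed the test. AHR had group means of 7.10 at 135 d, 6.89 at birth and 7.23 at 1 month in Ujumqin, and its change at birth of -0.21 ± 0.19 (SE) had an adjusted p of 0.403. ARNT changed by 0.05 ± 0.15 (SE) at birth, with an adjusted p of 0.79, and its other probe differed in direction or call. The group means most like those of CYP1A1 among 1175 probes with a gene symbol were those of MYOG, the muscle differentiation factor myogenin, with r = 0.97 over 13 groups, HRH2, a histamine receptor, with r = 0.86, and HOMER, as the files name it, with r = 0.85. The MYOG probe A_70_P026226 rose from a mean of 9.76 at 135 d to 11.31 at birth, by 1.55 ± 0.25 (SE), with an adjusted p of 9.01e-05, and stood at 11.26 at 1 month and 9.99 at 2 months. The other MYOG probe, A_70_P026227, gave -0.08 at birth, with an adjusted p of 0.83. A correlation of group means is a description here, since the high groups at birth and 1 month carry most of it.

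ALDH1A1 rose through the second part of gestation and stayed high after birth. In Texel the fetuses measured 9.60, 8.72 and 8.76 at 70 d and 8.98, 9.28 and 9.11 by day 85, whereas those of 135 d measured 12.95, 13.61 and 13.31. The probe was flat from 70 to 85 d and then climbed, and the 135 d animals were above all animals of 70 and 85 d. The change from 70 to 135 d was 4.27 ± 0.25 (SE), or 19.2-fold, with an adjusted p of 1.03e-07 in limma. The F test over the 5 Texel stages gave an adjusted p of 1.52e-07. The steps from 85 to 100 d, 1.97 ± 0.23 (SE), and from 100 to 120 d, 1.64 ± 0.23 (SE), each passed the threshold of an adjusted p under 0.05 and at least 2-fold, with adjusted p of 0.00335 and 0.00248. Since ALDH1A1 was listed by the study for a breed difference at 135 d, the change to 120 d, which does not use that group, is also given. It was 3.71 ± 0.25 (SE), with an adjusted p of 6.39e-07.

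ALDH1A1 also rose in Ujumqin fetuses. They measured 9.31, 9.75 and 10.01 at 70 d and 13.78, 12.93 and 12.59 at 120 d, a change of 3.41 ± 0.39 (SE), or 10.6-fold, with an adjusted p of 0.000135. The values at 135 d were 14.25, 14.95 and 14.42. At birth they were 15.35, 15.52 and 15.44, above all 3 fetuses of 135 d by 0.89 ± 0.33 (SE) in mean. The means at 1 and 2 months were 15.32 ± 0.13 (SD, n = 3) and 15.17 ± 0.41 (SD, n = 3), and the 3 postnatal groups overlapped.

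AOX1 rose before birth in Texel, and in Ujumqin no fetal change that was tested passed. In Texel it measured 6.82, 6.42 and 5.63 at 70 d and 6.54, 6.81 and 7.51 by day 85. Later Texel fetuses measured 8.55, 8.59, 8.24 and 8.08 on day 100, 9.12, 10.56 and 10.57 on day 120, and 9.98, 9.64 and 10.8 on day 135. In Ujumqin it measured 7.67, 8.35 and 7.46 at 70 d, 8.26, 8.62 and 8.3 on day 120 and 9.98, 10.21 and 9.87 on day 135. The Texel values climbed from 70 to 120 d, whereas those of Ujumqin stayed between 7.32 and 8.62 until 120 d and were higher at 135 d without overlap. From 70 to 135 d Texel rose by 3.85 ± 0.43 (SE), or 14.4-fold, with an adjusted p of 1.49e-05 in limma. With slide as a fixed term the rise was 1.65, with an adjusted p of 0.648. AOX1 was listed by the study for a low Texel value at 70 d, which enlarges that change, and from 85 to 135 d the rise was 3.19 ± 0.43 (SE), with an adjusted p of 0.000114. The Ujumqin change from 70 to 120 d was 0.57 ± 0.28 (SE), with an adjusted p of 0.162.

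Around birth AOX1 differed less than CYP1A1, and its highest group mean was at 1 month. Lambs measured 10.09, 9.80 and 8.76 at birth, 11.23, 10.75 and 11.20 at 1 month and 10.74, 11.003 and 9.98 at 2 months. The newborn lambs overlapped the fetuses of 135 d, and the mean difference was -0.47 ± 0.33 (SE), which became 1.28 in a fit over all groups with slide as a fixed term. The 1-month lambs were above all newborn lambs, by 1.51 ± 0.33 (SE) or 2.85-fold in mean, and overlapped the lambs of 2 months.

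PON1 was measurable only in the earlier fetuses. Texel fetuses measured 5.11, 5.03 and 5.17 at 70 d, and Ujumqin fetuses 5.55, 5.79 and 5.92. By 135 d the Texel values were 1.54, 1.75 and 1.56, none of them well above background. The probe was well above background on all arrays of 70 and 85 d, on 1 of 4 Texel and 3 of 3 Ujumqin arrays at 100 d, and on none from 120 d on or after birth. From 70 to 135 d in Texel the measured difference was -3.49 ± 0.31 (SE), with an adjusted p of 3.03e-06 in limma. From 70 to 120 d in Ujumqin it was -3.09 ± 0.38 (SE), with an adjusted p of 0.000217. PON1 passed the filter through its early arrays alone, so no support is drawn from these p values. With the late arrays set at their faintest detected signal, or at the probe's own value if higher, the falls were 2.59-fold and 6.64-fold. That signal can belong to any probe and is not a detection limit for PON1. With normexp background correction, which adds an offset, the differences were -0.24 in Texel and -0.34 in Ujumqin. After birth the 9 lambs lay between 1.43 and 3.99, where no order can be read. PON2, a relative in cells rather than plasma, stayed bright, with a Texel mean of 13.30 at 70 d and 11.98 at 135 d, and fell by 1.32 ± 0.29 (SE), with an adjusted p of 0.00256. Since PON1 is known as a liver gene, the hepatocyte marker list is given beside it. Of its 10 genes 5 were on the array, with a summed Texel level of 11.42 to 11.58 at 70 d and 11.42 to 11.89 at 135 d. ALB, the albumin gene that defines hepatocytes, was well above background on every fetal array except 1 Ujumqin array of 135 d, with 7.56 in mean at 70 d and 5.91 at 135 d in Texel. The ALB difference had an adjusted p of 0.051. SERPINA1, a plasma protease inhibitor of liver, had means of 10.20 and 7.80 and fell, with an adjusted p of 0.0126, whereas TF rose by 1.11 ± 0.33 (SE), with an adjusted p of 0.0189. TTR, at 0.66, and AHSG, at -2.01, did not pass, with adjusted p of 0.526 and 0.171. The part of such transcripts in the PON1 result was not tested.

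TXNRD1 was dim throughout and highest in newborn and 1-month lambs. Ujumqin fetuses of 135 d measured 3.48, 3.58 and 2.57, none well above background. Lambs measured 4.77, 4.65 and 5.75 at birth, where 2 of 3 were well above background, and 5.84, 6.58 and 5.47 at 1 month, where all were. At 2 months the values were 3.65, 2.79 and 1.5, and again none was. Neither the newborn nor the 1-month lambs overlapped the fetuses of 135 d, and the 2-month lambs lay below all of the 1-month lambs. For a fold, each undetected group was set at the faintest detected signal of its arrays, or at the probe's own value if higher. On that scale the rise to birth was 3.6-fold and the decline from 1 to 2 months 6.14-fold. Both are without a test because the gene was chosen for this comparison, and neither is a strict bound. The fold at birth equals the ratio of the measured means. With values floored at 16 the differences were smaller, 1.06 at birth and -1.96 from 1 to 2 months. The difference of 0.91 ± 0.64 (SE) from birth to 1 month became -0.77 with slide as a fixed term, and the groups overlapped. On slide 3 the 1-month lambs, 5.47 to 6.58, were above its 5 fetuses, mostly Texel, at 2.94 to 4.91. On slide 1 the newborn lambs, 4.65 to 5.75, overlapped the Texel fetuses of 70 and 85 d, 3.96 to 4.81. The newborn level was thus not distinct from that of early fetuses.

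In fetal muscle TXNRD1 fell from 70 to 135 d in Texel, and the Ujumqin change did not pass the test. Texel means were 4.44 ± 0.34 (SD, n = 3) at 70 d, 4.82 ± 0.15 (SD, n = 4) on day 100 and 3.06 ± 0.25 (SD, n = 3) at 135 d. The change from 70 to 135 d was -1.39 ± 0.36 (SE), with an adjusted p of 0.00762 in limma. With the undetected arrays of 135 d set at their faintest detected signal or own value, the fall was 1.64-fold. With values floored at 16 the change was -0.44, with an adjusted p of 0.324. In Ujumqin the means were 3.97 ± 1.23 (SD, n = 3) on day 70, 4.40 ± 0.66 (SD, n = 3) on day 85, 2.44 ± 0.60 (SD, n = 3) on day 100 and 2.40 ± 1.08 (SD, n = 3) on day 120, with no array well above background at the last 2 stages. Its change from 70 to 120 d was -1.57 ± 0.67 (SE), with an adjusted p of 0.103. Without the Ujumqin fetus at 2.60, which was the lowest at 70 d, the adjusted p was 0.0249, and without the one at 3.58, the highest at 120 d, it was 0.0408. With each animal left out in turn the change ranged from -2.26 to -1.07, so other omissions made it smaller. Thioredoxin itself, TXN, the substrate of TXNRD1, was bright at every stage, with group means from 14.91 to 15.45, and its change at birth was 0.47 ± 0.15 (SE), below 2-fold, with an adjusted p of 0.0154.

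Over the members, 4 of 5 passed the threshold from 70 to 135 d in Texel, where ALDH1A1 and AOX1 rose and PON1 and TXNRD1 fell, beside 21.2% of all 14525 probes tested. From 70 to 120 d in Ujumqin 2 of 5 passed, beside 12.1% of all probes. Nothing is read from the members' counts, because Texel AOX1 at 70 d and ALDH1A1 at 135 d were listed by the study and PON1 passed the filter through its early arrays alone. For the comparisons that chose the members, 19.9% of all probes passed from 135 d to birth, 8.63% from birth to 1 month and 4.12% from 1 to 2 months, and nothing is read from the members there. With slide as a fixed term in the Texel fit none of the 4 calls held. In that fit ALDH1A1 changed by 3.74, with an adjusted p of 0.112, and AOX1 by 1.65, with 0.648. PON1 changed by -3.72, with 0.0747, and TXNRD1 by -2.46, with 0.165. Texel fetuses of 70 and 135 d shared no slide, so no value within a slide could be had.

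The 5 time courses were not alike. Over the 13 group means ALDH1A1 and AOX1 ran together with r = 0.90, and PON1 ran against both, with r = -0.86 for each. CYP1A1 and TXNRD1 had r = 0.53 with each other. The genes most like ALDH1A1 were PGFS, a prostaglandin F synthase, with r = 0.98, FABP4, the fatty acid carrier of adipocytes, with r = 0.97, and ATP1B1, a subunit of the sodium pump, with r = 0.97. For AOX1 they were a pair of GAPDH probes, with r = 0.95 each, and GSTA1, a glutathione transferase, with r = 0.94. For PON1 they were CDH2, the neural cadherin of myoblasts, with r = 0.97, PHKG2 with r = 0.95 and the copper chaperone ATOX1 with r = 0.95. For TXNRD1 they were the lactate carrier SLC16A1 with r = 0.83, CRYAA with r = 0.80 and CYB561 with r = 0.80. These means share libraries and a common trend with age, and no p is attached.

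Markers of adipocytes and muscle fibres are given beside ALDH1A1, since some of them also changed with stage. The summed level of the 6 adipocyte genes on the array, of 8 listed, was 11.10 to 12.65 in Texel at 70 d and 12.92 to 13.01 at 135 d, and in Ujumqin it was 11.37 to 11.82 at 70 d and 12.78 to 13.36 at birth. From 70 to 135 d in Texel, LPL, the lipase that takes up fatty acids from blood fat, rose by 2.51 ± 0.34 (SE), with an adjusted p of 7.16e-05, and the adipocyte regulator PPARG rose by 1.13 ± 0.41 (SE), with an adjusted p of 0.042. The leptin gene LEP fell by 1.11 ± 0.38 (SE), with an adjusted p of 0.0334, although its other probe differed in direction or call. FABP4, at 2.70 ± 1.09 (SE), PLIN1, at 0.66, and SCD, at -0.45, did not pass, with adjusted p of 0.0662, 0.198 and 0.316. Myoglobin in Ujumqin fell slightly from day 85 to 100, when ALDH1A1 rose, and both rose after that. The myoglobin means were 12.92, 12.55 and 12.25 on days 70, 85 and 100, beside 9.69, 9.60 and 11.01 for ALDH1A1. Myoglobin then stood at 13.80 on day 120, 15.52 on day 135 and 17.91 at birth. The part of changing cell composition in the ALDH1A1 result was not tested.

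The breeds were compared at each fetal stage on the arrays of that stage. Of the 25 pairs of gene and stage, 4 had been listed by the study as differing and are described without a test. These are AOX1 at 70 d, with 6.29 ± 0.61 (SD, n = 3) in Texel and 7.82 ± 0.46 (SD, n = 3) in Ujumqin, ALDH1A1 at 135 d, with 13.29 ± 0.33 (SD, n = 3) and 14.54 ± 0.37 (SD, n = 3), and PON1 and TXNRD1 at 100 d. For PON1 at 100 d the means were 2.93 ± 0.50 (SD, n = 4) in Texel and 4.91 ± 0.60 (SD, n = 3) in Ujumqin, with 1 of 4 Texel arrays well above background. For TXNRD1 at 100 d they were 4.82 ± 0.15 (SD, n = 4) and 2.44 ± 0.60 (SD, n = 3), with no Ujumqin array well above background. With values floored at 16 these differences were smaller, -0.91 for PON1 and 0.82 for TXNRD1. Of the other 21 pairs none passed the threshold in limma and 7 had an unadjusted p under 0.05. Of all 14525 probes 2496, 1934, 1924, 1536 and 881 had such a p, from the earliest to the latest stage. The unequal-variance test of the study's methods gave none of the 21 after adjustment and none with an unadjusted p under 0.05 and a 2-fold difference. Over all probes the shares called were 0.117% on day 70, 0.0207% on day 85, 0.0138% on day 100, 0.0344% on day 120 and 0.0207% on day 135.

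PON1 was lower in Texel in mean at the 3 stages at which it was detected. At 70 d it differed by -0.65 ± 0.15 (SE), with no overlap and an adjusted p of 0.119, and at 85 d by -1.05 ± 0.35 (SE), with an adjusted p of 0.334. At 120 and 135 d no array of either breed was well above background, so no direction can be read there. AOX1 had differences of both signs. It was lower in Texel at 70 and 85 d and higher at 120 d, where Texel measured 9.12, 10.56 and 10.57 and Ujumqin 8.26, 8.62 and 8.3, a difference of 1.69 ± 0.42 (SE) with an adjusted p of 0.385. The adjusted p was 0.0322 without the Texel fetus at 9.12, 0.0296 with slide as a fixed term, 0.0151 in 1 fit over all 13 groups and 0.00354 in that fit with slide. With slide in the 120 d fit the estimate, 2.17, was the same as without that fetus, whose slide held no other array of 120 d. Of 22 alternatives 18 were counted as the same as the main result, and the difference ranged from 1.34 to 2.17. At 120 d the Texel fetuses were all male and the Ujumqin fetuses all female, so breed and sex cannot be told apart there. TXNRD1 at 120 d was not well above background on any Ujumqin array. With those arrays set at their faintest detected signal or own value, Texel was 1.76-fold higher in mean. The adjusted p in limma was 0.427, and the breeds overlapped. The study's quantitative PCR of TXNRD1 gave far larger Texel to Ujumqin ratios than its array at 70 and 85 d, and a smaller one at 120 d. CYP1A1 had differences between -1.24 and 2.66 with adjusted p from 0.669 to 0.914.

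**Figure D3:**
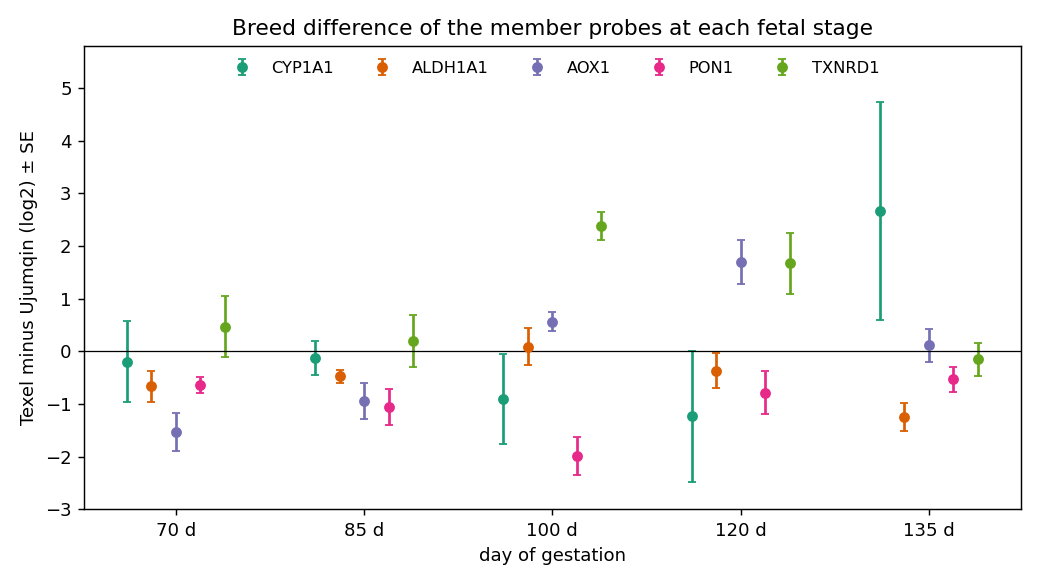
Texel minus Ujumqin difference in log2 normalized signal with its SE (y axis) at each day of gestation (x axis) for the 5 probes, from limma fits of 3 or 4 Texel and 3 Ujumqin arrays. PON1 lies below 0 at 70, 85 and 100 d and was not well above background in either breed later, and AOX1 lies at -1.53 at 70 d and at 1.69 at 120 d.

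Whether the breed difference changed with stage was tested with the interaction of breed and stage over 31 fetal arrays. Only AOX1 passed, with an adjusted p of 0.0236, beside 0.165% of all probes. That test includes the 70 d animals for which AOX1 was listed, and without that stage the adjusted p was 0.196. Without 1 Ujumqin fetus of 120 d it was 0.0828 and without 1 of 70 d it was 0.0523. With sex as a term it was 0.0823. The adjusted p for the others was 0.232 for TXNRD1, 0.343 for PON1, 0.429 for ALDH1A1 and 0.684 for CYP1A1. Males and females, compared within groups over all 40 arrays, gave no called member, with 1 unadjusted p under 0.05, that of ALDH1A1, at -0.31 ± 0.14 (SE) for male minus female. Of all probes 0.0413% passed.

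Of 204 further genes listed for detoxification and redox control, 27 were on the array and tested. From 135 d to birth 5 of them rose and 2 fell, or 25.9% beside 19.9% of all probes, with a median change of 0.05 beside -0.01 over all probes. Xanthine dehydrogenase XDH, which like AOX1 is a molybdenum enzyme and can make superoxide, had means of 7.93 and 10.65 and rose by 2.72 ± 0.97 (SE), with an adjusted p of 0.0278, while its other probe gave 2.34 with an adjusted p of 0.0822. The metal-binding MT3 rose by 1.44 ± 0.25 (SE), with an adjusted p of 0.000139. The thiol reductase GLRX rose by 1.34 ± 0.53 (SE), with an adjusted p of 0.0452. The estrogen receptor ESR2 rose by 1.33 ± 0.40 (SE), with an adjusted p of 0.0106, but its other probe, dim on most arrays, gave -0.56. The iron carrier TF fell by 1.53 ± 0.59 (SE), with an adjusted p of 0.0421. CYBB, the catalytic subunit of the phagocyte oxidase, fell by 1.09 ± 0.22 (SE), with an adjusted p of 0.000624, while its other probe gave 0.96 with an adjusted p of 0.425. GSTA1 was the fifth gene to rise. With 1 animal left out between 3 and 6 list genes were called at birth.

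From birth to 1 month no listed gene rose and 3 of 27 fell, or 11.1% beside 8.63% of all probes. XDH fell by 3.30 ± 0.97 (SE), with an adjusted p of 0.0189, while its other probe gave -2.87 with an adjusted p of 0.0579. MT3 fell by 1.36 ± 0.25 (SE), with an adjusted p of 0.000845. The nitric oxide synthase NOS2 fell by 1.21 ± 0.34 (SE), with an adjusted p of 0.0157. From 1 to 2 months XDH rose and NOS2 fell, or 7.41% of the list beside 4.12% of all probes. The other XDH probe gave 3.20 at this step, with an adjusted p of 0.0605. On the probe used, XDH did not share the course of CYP1A1 and TXNRD1, which were high at 1 month. Its other probe went in the same directions without passing. From 70 to 120 d in Ujumqin, fitted over the 12 arrays of that test, CYP2J, NOS2, NOS3, ESR1 and EPAS1 rose and GLRX and MT3 fell, 25.9% of the list beside 12.1% of all probes, with a list median of 0.26 beside -0.02 over all probes. From 120 to 135 d XDH, GSTA1 and ESR1 rose and none fell, or 11.1% of the list. The share of all probes was not counted for this step, so nothing is read from the count. The other XDH probe did not pass there, with an adjusted p of 0.0606. From 70 to 135 d in Texel 5 of 27 rose, namely XDH, GSTA1, TF, ESR1 and EPAS1, and 5 fell, among them GLRX, PON2, ARNT2 and ESR2. These were 37.0% of the list beside 21.2% of all probes, and the median of the list was -0.29 beside -0.04 over all probes. With slide as a fixed term in the fit over all 13 groups, 0 list genes were called in this comparison and in those from 135 d to 2 months.

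**Figure D4:**
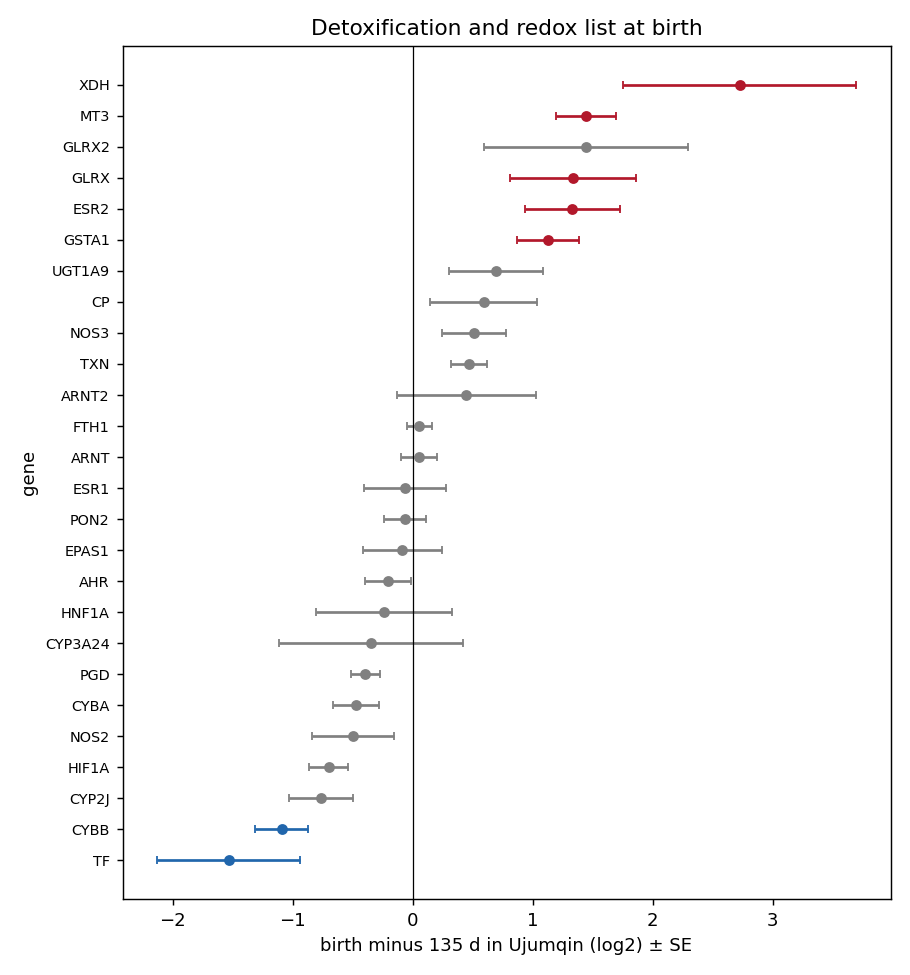
Change from 135 d to birth in Ujumqin with its SE (x axis, log2 normalized signal) for the listed detoxification and redox genes (y axis, ordered by change), of which 1 of the 27 tested is not shown. Red genes rose and blue genes fell past the threshold, which 5 and 2 did, and grey genes did not pass.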

How the data were processed

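Agilent Feature Extraction 10.5 (submitters' processing notes) gave the deposited scanner files, whose spot intensity is, per the file headers, background-subtracted and corrected for position, and arrays were not scaled to each other. The authors' table holds deposited log2 values that they normalized by quantiles, and it served as an alternative. Its columns were matched to samples by name. Of 15208 spots that were not controls, those marked as outliers were left out, spots of a probe were averaged, the 40 arrays were quantile-normalized together, values were set to at least 1 and log2 was taken. The 14525 probes well above background on at least 1 array were tested with limma 3.58.1 in R 4.3.3, which moderates the variance across probes, with Benjamini-Hochberg adjustment over them. A call needed an adjusted p under 0.05 and at least a 2-fold change. The number of arrays limits the precision.

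Texel stages were fitted over 16 arrays, Ujumqin fetal stages up to 120 d over 12, breeds on the arrays of each stage, the interaction over 31, sex over all 40 with group as a term, and the groups around birth over 24. List counts used these fits. Ujumqin fetuses of 135 d were kept out of the fetal test because they are the reference at birth. Where a group had no detected array, a fold set the brighter mean against a floor for each array of that group. The floor was the faintest detected signal of any probe there, or the probe's own value if higher, and is not a strict detection limit. A symbol came from a match of the accession to the RefSeq gene table of ARS-UI_Ramb_v3.0 (662 probes) or from the files, which gave 1379 probes a symbol, and the probe with the highest mean stood for a listed gene. Named are the members, for each the 3 probes with a symbol, well above background on at least 10 arrays, whose 13 group means correlate best with it, and up to 4 listed genes with the largest called change in each direction at birth and at 1 month. GSTA1 at birth, the fetal list genes, AHR, ARNT, TXN, PON2 and the markers were named after their values were seen. Members and lists were chosen with earlier results of these data known. The scripts were tested on simulated data with known changes. Alternatives were other scalings, background correction, filters, floors, fits, sex, slide and replicate terms, the unequal-variance test and leaving out each animal. The plots were made with matplotlib 3.10.9 in Python 3.11.15 with pandas 2.3.3 and numpy 2.4.6. Motifs in promoters and proteins were not analysed here. The values of 1 listed gene are not reported here, though the list counts include it.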

Additional observations from a re-analysis of the deposited data

Results flagged for a closer look

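The breed difference of AOX1 differed between fetal stages by the interaction test in limma, with an adjusted p of 0.0236, going from -1.53 at 70 d to 1.69 at 120 d (Texel minus Ujumqin, log2). The test includes the 70 d animals for which AOX1 was chosen, and the adjusted p was 0.196 without that stage, 0.463 with slide as a fixed term and 0.0823 with sex as a term. Among the 4 Texel fetuses of 100 d the TXNRD1 value of 4.60 stood apart from the others at 4.88 to 4.91, with a gap of 0.901 of the whole range, above Dixon's critical value. Each of the 5 genes was tried in this group, and no other passed that value. The SD of the group, 0.15, was the smallest of all TXNRD1 groups, beside a median of 0.60. Chance alone flags about 1 in 20 such groups, and the groups of 3 animals were not tested.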

How the results depend on the processing

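With slide as a fixed term in their own fits, the Texel changes from 70 to 135 d became 3.74 for ALDH1A1, 1.65 for AOX1, -3.72 for PON1 and -2.46 for TXNRD1, none of them called, 0 list genes were called there, and the AOX1 interaction had an adjusted p of 0.463 (0.0511 with slide as a random block). In 1 fit over all 13 groups with slide as a fixed term, that Texel change was 2.18 for AOX1, -3.35 for PON1 and -2.53 for TXNRD1, none called, and AOX1 in Ujumqin from 70 to 120 d was -0.10, while ALDH1A1 stayed called in both breeds. In that fit the differences from 135 d to birth, birth to 1 month and 1 to 2 months were 11.44, 2.59 and -11.03 for CYP1A1, 2.07, -0.34 and -1.11 for ALDH1A1 and 1.28, 0.92 and -1.65 for AOX1. For TXNRD1 the first pair was 3.13 and -0.77, and 0 list genes were called in each list comparison. Normexp background correction, which adds an offset, gave 4.47 for CYP1A1 at birth, -0.24 and -0.34 for PON1 in Texel and Ujumqin, -0.09 for TXNRD1 in Texel, and 0.20, 0.18 and -0.40 for TXNRD1 over the 3 steps from 135 d on, with an interaction p of 0.0524 for AOX1 and 4 list genes at birth and 1 from 1 to 2 months. A floor of 16 gave -0.44 for TXNRD1 in Texel, 1.06 at birth and -1.96 from 1 to 2 months. Division by the 75th percentile gave 1.20 for ALDH1A1 and 2.43 for TXNRD1 at birth. The AOX1 interaction had an adjusted p of 0.0823 with sex as a term and 0.196 without 70 d, an alternative chosen after seeing the data. TXNRD1 in Ujumqin from 70 to 120 d, -1.57, passed in the fit over all 13 groups. A fit over 12 arrays called 4, 1 and 1 list genes over the 3 steps, and array weights called 1 in the last. With 1 animal left out, CYP1A1 in Texel ranged from 0.30 to 4.03, the AOX1 interaction p from 0.0009 to 0.0828 and TXNRD1 in Ujumqin from -2.26 to -1.07. The list counts then ranged from 3 to 6 at birth (3 without Ujumqin 135 d replicate 3, 4 without its replicate 1 or birth replicate 3), from 1 to 3 by 1 month (1 without birth replicate 2) and from 1 to 3 by 2 months (1 without 1-month replicate 1 or 3). Equal replicate numbers did not pair the animals (median correlation -0.01 over 234 pairs, 13 of them over 0.1), and the replicate block changed no call of the 5 genes and gave 6 in place of 7 list genes at birth, with 4.27 for ALDH1A1 in Texel at an adjusted p of 3.95e-06. In all, 785 of the alternatives to these results were counted as the same, 37 as moved, 18 as weaker and 4 as stronger. A change of sign could still count as the same. CYP1A1 in Ujumqin from 70 to 120 d, for example, was 0.72, and -0.61 without 1 animal of 120 d. The cause of these shifts was not tested. PON1 and TXNRD1, dim probes near background, have the least signal to measure.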

Other observations

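SELE, the adhesion molecule E-selectin of activated endothelium, was well above background only on lamb arrays, on all 3 at birth and all 3 at 1 month and on none at 2 months, and so shared its age range with the high CYP1A1 and TXNRD1 values. Its Ujumqin group means were 1.46 at 135 d, 5.60 at birth, 4.38 at 1 month and 3.77 at 2 months. The other endothelial genes measured, NOS3 and SELP, changed by 0.51 and -0.49 from 135 d to birth. Neither passed in limma, with adjusted p of 0.129 and 0.448. Beta-globin, HBB, had means of 16.73 at 135 d, 15.29 at birth, 13.09 at 1 month and 10.46 at 2 months. Its difference at birth did not pass in limma, with an adjusted p of 0.122, and its other probe disagreed in call or direction after birth. EPOR, the other erythroid gene measured, went the other way and rose by 1.06 at birth, with an adjusted p of 0.0261. The Texel fetus of 135 d with a CYP1A1 value of 10.96 and the 2-month lamb with 10.69 lay near the young lambs for CYP1A1. Their TXNRD1 values, 3.19 and 1.5, were below those of the lambs at birth and 1 month. Their AOX1 values, 9.64 and 9.98, lay within the range of the newborn lambs. These genes were singled out after their values were seen.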
